A study of Mus musculus with 4 samples.

Results

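Class II low monocytic leukaemia cells are bone marrow cells from mice with MLL-AF9 leukaemia that carried monocyte transcripts but almost none for MHC class II. They were chosen by their own counts of unique molecular identifiers (UMIs, which count captured mRNA molecules). A cell was kept when it had at least 1 UMI in 4 or more of the 8 genes Csf1r, Ccr2, Ms4a6c, F13a1, Fn1, Ly86, Irf8 and Cx3cr1. It also needed at most 2 UMIs summed over H2-Aa, H2-Ab1, H2-Eb1 and Cd74, and 0 UMIs of C1qa, Siglech and Cxcr2. Of 24955 leukaemia cells that passed the quality filter (500 or more genes, 1000 or more UMIs, at most 10% mitochondrial UMIs), 3326 met this rule, 2273 in the wild-type (WT) library and 1053 in the Rbm5 knockout (KO) library. The study profiled mouse bone marrow by droplet single-cell RNA sequencing in 4 libraries, 1 per group: MLL-AF9 primary leukaemia cells, WT or Rbm5 knockout, taken at a common endpoint after primary transplantation, and normal c-Kit+ stem and progenitor cells, WT or Rbm5 knockout. All 4 groups were murine bone marrow, and the labels give no strain, age, number of animals, Cre driver or deleted exons. The study asked whether loss of Rbm5, an RNA-binding splicing regulator, alters the self-renewal genes driven by the MLL fusion. With 1 library per group nothing could be tested: ratios below are descriptions of these libraries, and every interval is a 95% interval that covers counting error only.

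Classical monocytes arise in the marrow from progenitors under the transcription factors PU.1 (Spi1), Irf8 and Klf4, leave it through the chemokine receptor Ccr2 and depend on the growth factor receptor Csf1r. When they meet microbial or inflammatory signals they switch on immediate early genes, then chemokines and cytokines, and they take up class II molecules as they turn into antigen-presenting cells. MLL-AF9 is a fusion of a chromatin regulator with a partner that recruits transcription elongation machinery. It keeps genes such as Hoxa9 and Meis1 on in myeloid cells, and the leukaemias it causes often hold cells with monocytic features.

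Over all barcodes the 2 leukaemia libraries held 94122777 and 102884646 UMIs. The monocytic cells were deeper in the KO library, with a median of 8899 UMIs a cell against 6802 in WT, as were the remaining quality-filtered cells, with 7289 against 5729. Mitochondrial genes made up 1.11% of their UMIs in WT and 1.06% in KO. The doublet caller Scrublet marked 5.37% of the WT and 7.98% of the KO monocytic cells, against 3.10% and 3.16% of all filtered cells, and no doublet was removed. The 2 leukaemia libraries shared 54 barcodes, and no barcode was a class II low monocytic cell in both; 1 was in the WT leukaemia and WT c-Kit+ libraries. Rbm5 itself stood at 166 counts per 1000000 UMIs (CPM) in WT and 112 CPM in KO monocytic cells, and at 159 and 116 CPM in the remaining cells. In c-Kit+ cells that met the same rule it stood at 63.5 CPM in WT and 92.3 CPM in the library labelled KO, a level that goes against that label. Because the deleted part of Rbm5 is not given in the sources used here and transcripts outside it can still be counted, these levels do not check the labels.

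Class II low monocytic cells made up 17.2% of filtered cells in the WT leukaemia library (16.6 to 17.9) and 8.94% in the KO library (8.43 to 9.47). The KO share was 0.518 times the WT share (interval 0.481 to 0.558). The lower share in KO was already there in the marker criterion alone, met by 21.0% of WT and 11.6% of KO cells. From those cells the class II limit removed 394 in WT and 269 in KO, and the 3 excluded genes removed a further 98 and 50. The KO cells, with the lower share, were the deeper ones. With every cell thinned to 2000 UMIs, which left out 1190 WT and 514 KO cells, the shares were 9.48% and 5.58%. In normal c-Kit+ marrow the same rule was met by 582 cells (4.49%) in WT and 630 cells (4.60%) in the library labelled KO.

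Within the set, the WT cells sat nearer the edge of the marker rule than the KO cells in counts that were not thinned. The KO cells were deeper (median 8899 against 6802 UMIs), more markers can be detected in a deeper cell, and the part of depth was not tested. In WT 637 cells had exactly 4 markers, 599 had 5, 523 had 6, 367 had 7 and 147 had all 8. In KO the numbers were 174, 214, 296, 275 and 94, so the commonest count was 6 in KO and 4 in WT. Most cells had no class II UMI at all, 78.6% in WT and 72.3% in KO. Just beyond the limits lay 735 WT and 257 KO cells with 3 markers, and 66 WT and 119 KO cells with enough markers but 3 to 5 class II UMIs. Ms4a6c is 1 of the 8 markers counted, so a lower level outside the marker limit follows from the rule. Cells just outside the marker limit had less Ms4a6c (346 CPM in WT, 162 CPM in KO) than cells just inside it (675 and 529 CPM). They also had more Ngp, a neutrophil granule gene, at 1327 CPM in WT and 4693 in KO against 878 and 2767 CPM just inside. Cells just outside the class II limit had Csf1r at 179 CPM in WT and 139 in KO, against 97.4 and 108 CPM in cells with 1 to 2 class II UMIs.

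The 8 markers chose the cells, so their levels are a description. Csf1r, the receptor for the growth factor of the monocyte lineage, stood at 97.9 CPM in WT and 94.1 in KO, and Ccr2 at 202 and 207 CPM. The membrane protein gene Ms4a6c stood at 886 and 857 CPM, and the transcription factor Irf8 at 348 and 326 CPM. These 4 levels were close in the 2 libraries. The other 4 markers were further apart. Fn1 (fibronectin) was 326 CPM in WT and 811 in KO, 2.49-fold (2.41 to 2.57), and F13a1, a coagulation factor subunit kept by monocytes, was 823 and 1287 CPM, 1.56-fold (1.53 to 1.60). Ly86, the partner of a Toll-like receptor homologue, was 285 CPM in WT and 142 in KO, a ratio of 0.497 (0.470 to 0.526), and the chemokine receptor Cx3cr1 was 92.9 and 56.8 CPM. Class II transcripts were at trace level by construction, with Cd74 at 17.2 CPM in WT and 30.05 in KO. In the 351 WT and 259 KO cells that passed the same marker rule with more than 2 class II UMIs, Cd74 stood at 6078 and 3043 CPM.

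**Figure D1:**
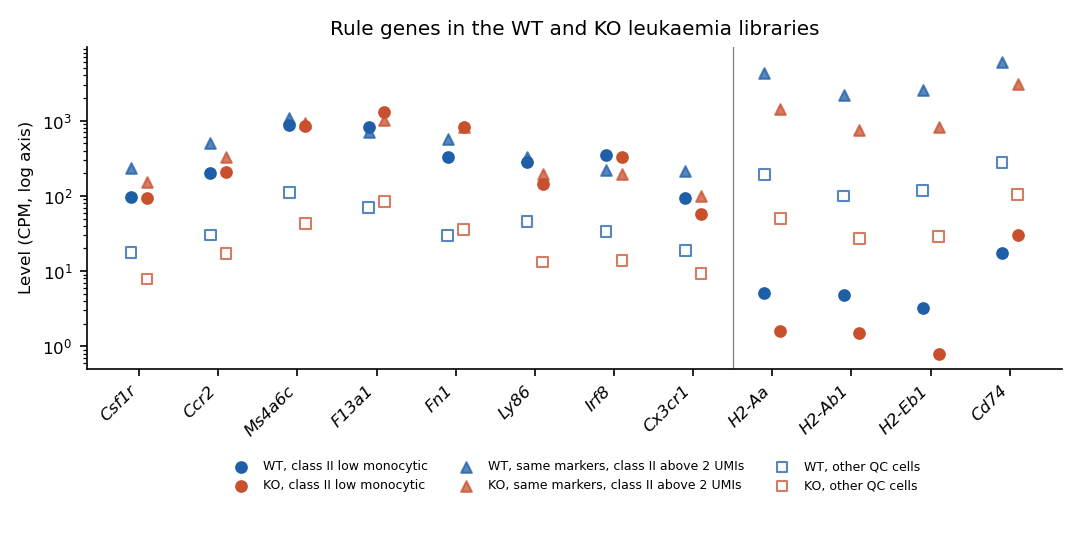
Levels in CPM (log axis) of the 8 marker genes and the 4 class II genes in class II low monocytic cells (circles), cells of the same marker rule with more than 2 class II UMIs (triangles) and the remaining filtered cells (open squares) of the WT (blue) and KO (red) leukaemia libraries, 1 library each. Csf1r stands at 97.9 and 94.1 CPM in the circles and at 17.7 and 7.84 CPM in the squares, and Cd74 stands lowest in the circles.

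Outside the genes of the rule, the cells had higher levels of many monocyte genes in both libraries, and also of some progenitor genes. Of 10508 genes that averaged at least 5 CPM, 615 (5.85%) were at least 2-fold higher than in the remaining cells in both libraries and 433 (4.12%) at least 2-fold lower. In WT alone 6.27% were at least 2-fold higher and in KO alone 12.2%. The cells were chosen by their expression, so these counts describe the choice. The highest genes by the smaller of the 2 log2 ratios were Ass1, Arhgef37, Stxbp6, S100a10, Prdx4, Apba1, Itga1, Klf4, Ahnak, Txndc5, Ifi209 and Pld4. S100a10, the annexin partner, stood at 767 CPM in WT and 895 in KO monocytic cells against 85.7 and 50.9 CPM in the remaining cells. Stxbp6, which binds proteins of vesicle fusion, stood at 393 and 407 CPM against 42.4 and 23.1 CPM. Itga1, a collagen-binding integrin chain, stood at 327 and 252 CPM against 40.2 and 12.6 CPM. All 3 genes were also high in the class II high cells of the same marker rule, which are among the remaining cells: S100a10 stood there at 461 and 791 CPM, Stxbp6 at 420 and 519 CPM and Itga1 at 234 and 181 CPM.

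Classical monocyte genes that the rule did not name followed the same division in part. Of 23 measured members of that list, 16 were higher than the remaining cells in WT by any amount. At least 2-fold higher in both libraries were 12, among them the calcium-binding S100a4, Crip1, Tgfbi and the interferon-inducible Ifi27l2a. The rule's own Ccr2, F13a1 and Ms4a6c are counted in the 12, and 2 members were at least 2-fold lower in both libraries. Ly6c2, the surface antigen by which mouse classical monocytes are sorted, separated the cells less: 1603 CPM in WT and 1332 in KO against 1105 and 481 CPM. Among lysosomal genes 10 of 27 were 2-fold higher in both libraries, including the cathepsins Ctss, Ctsh, Ctsz, Ctsc and Ctsa. Among interferon-response genes 14 of 34 were, including Ifi204, Ifi203, Bst2 and Mx1. The share over all genes was 5.85%. Of the machinery that loads class II molecules, Ctss, Ifi30 and H2-DMa were 2-fold higher in both libraries although class II itself was nearly absent. Ifi30, a lysosomal thiol reductase, stood at 402 CPM in WT and 482 in KO against 61.0 and 34.8 CPM. In class II high cells of the same marker rule classical monocyte genes summed to 26408 CPM in WT and 31472 in KO. In the monocytic cells they summed to 23497 and 29576 CPM. Lysosomal genes summed to 9022 and 9551 against 6553 and 7629 CPM, and interferon-response genes to 2940 and 2076 against 1222 and 1122 CPM. High sums of these 3 lists were thus not particular to the class II low cells.

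The lowest genes against the remaining cells were all neutrophil genes: Stfa3, Stfa2, Retnlg, Fpr1, Ly6g, Ceacam10, Wfdc21, Ngp, Lcn2, S100a9, Ltf and Mmp9. Of 17 measured maturing neutrophil markers, 16 were at least 2-fold lower in both libraries. Their summed level was 11174 CPM in WT and 16752 in KO monocytic cells, against 93104 and 139633 CPM in the remaining cells. In T and NK cells of the same libraries (113 WT and 114 KO cells with 3 or more T and NK marker genes), which should lack them, the sum was 19989 and 28211 CPM. The level in the monocytic cells was thus below that in cells of another lineage. Cxcr2 was at 0 by the rule.

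The same rule applied to normal c-Kit+ marrow gave cells beside which the leukaemic cells could be set. These normal cells came from libraries of c-Kit+ stem and progenitor cells, and they differed in cycling and depth. With thinning, a cycling gene such as Top2a was detected in 65.4% of them in WT and 66.3% in the library labelled KO. In leukaemic cells the shares were 37.1% and 33.9%. Their median depth was 6802 and 8899 UMIs, against 13648.5 and 14450 UMIs in normal cells. The part of stage, cycling and depth in comparisons with these normal cells was not tested. Over 10493 genes, 1111 (10.6%) were at least 2-fold higher in leukaemic than in normal cells of the rule in both genotypes and 633 (6.03%) at least 2-fold lower. The homeobox genes of the fusion programme divided the 2 kinds of cell. Hoxa9 stood at 146 CPM in WT and 89.6 in KO leukaemic cells, and at 9.03 and 8.82 CPM in normal cells. Meis1, the DNA-binding partner of Hoxa9, stood at 423 and 278 CPM against 27.3 and 18.5 CPM. Hoxa10 stood at 51.6 and 27.2 CPM and had 0 UMIs in both sets of normal cells, which with a limit of 3 UMIs a library makes the leukaemic level at least 133-fold higher in WT and at least 80.3-fold higher in KO. Mecom, which encodes the stem cell factor Evi1, stood at 903 CPM in WT and 987 in KO leukaemic cells against 3.74 and 1.81 CPM in normal cells. The leukaemic levels of these 4 genes lay above the normal ones in both genotypes. They were also counted in T and NK cells of the WT and KO leukaemia libraries. There Hoxa10 stood at 27.7 and 13.8 CPM, Hoxa9 at 50.5 and 29.9 CPM, Meis1 at 122 and 78.1 CPM and Mecom at 189 and 312 CPM. The part of such background in the monocytic levels and in the folds for Hoxa10 was not tested.

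Single cells showed the same for Mecom. With cells thinned to 2000 UMIs, 57.0% of WT and 62.8% of KO monocytic cells had a Mecom UMI, against 10.1% and 14.5% of T and NK cells in the same libraries. In normal cells of the rule the share was 0.524% in WT and 0.163% in the library labelled KO. The median depth of the T and NK cells was 4585 UMIs in WT and 6460 UMIs in KO. Without thinning the shares of monocytic cells were 72.6% and 83.6%. Not all progenitor genes followed: the stem cell factor receptor Kit stood at 40.8 CPM in WT and 19.2 in KO leukaemic cells and at 43.8 and 40.03 CPM in normal ones. Mpo, the myeloperoxidase of primary granules, was lower in leukaemic cells, at 288 and 473 CPM against 2431 and 2314 CPM. The normal cells were taken as c-Kit+ stem and progenitor cells, and the part of this in the Kit and Mpo levels was not tested.

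**Figure D2:**
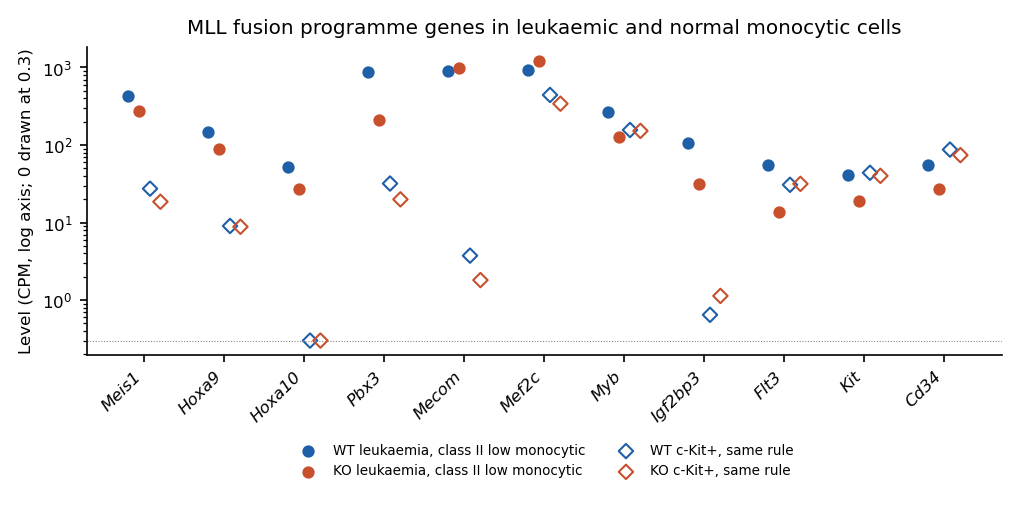
Levels in CPM (log axis) of 11 genes of the MLL fusion programme and progenitor state in class II low monocytic leukaemia cells (filled circles) and in normal c-Kit+ cells that met the same rule (open diamonds), WT in blue and KO in red, 1 library each; a value of 0 is drawn at 0.3. Meis1, Hoxa9, Hoxa10, Pbx3, Mecom and Igf2bp3 stand above the normal cells in both genotypes, while Kit and Cd34 do not.

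Between the 2 leukaemia libraries, the KO monocytic cells were set apart by a very large excess of immediate early and inflammatory transcripts and by lower levels of a group of genes that includes Pbx3, Ikzf2 and Flt3. Of 10116 genes that averaged at least 5 CPM, 587 (5.8%) were at least 2-fold higher in KO and 810 (8.01%) at least 2-fold lower, 13.8% in all. The median log2 ratio over all genes was -0.24 (SD over genes 0.80), and 69.4% of genes were lower in KO by any amount. Scaling by median-ratio size factors brought that median to 0.01 and turned the counts to 776 higher and 399 lower. The list medians that follow are to be read against this median of -0.24. In the remaining cells 5.53% of genes were 2-fold higher and 13.3% lower, whereas in normal cells of the rule only 0.0741% were higher and 0.138% lower.

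The 12 genes with the highest KO over WT ratio at 50 CPM or more were Ccl2, Cxcl2, Atf3, Dusp1, Fosb, Egr1, Il1b, Fos, Nr4a1, Klf2, Jun and Cd83. Of these, 8 are immediate early genes, which cells switch on within minutes of a stimulus without new protein synthesis. The whole immediate early list followed: all 36 members were measured, 35 were higher in KO, the same 35 by 2-fold or more (background 5.8%). The median log2 ratio of the list was 4.03 against -0.24 for all genes. The exception was Myc, at 23.7 CPM in WT and 20.1 in KO. Fos, a subunit of the AP-1 dimer, stood at 58.2 CPM in WT and 3212 in KO, 55.2-fold (52.0 to 58.7). Its partner Jun stood at 51.95 and 2439 CPM, 46.9-fold (44.1 to 50.1). Klf2, a Krüppel-like factor that restrains myeloid activation, stood at 129 and 6693 CPM, 51.7-fold (49.7 to 53.8). Each of these 3 genes was lower in WT leukaemic cells than in normal cells of the rule, where Fos stood at 940 CPM in WT and 868 CPM in the library labelled KO. Their KO leukaemic levels were above the normal ones.

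Dusp1, a phosphatase that ends MAP kinase signalling, stood at 9.69 CPM in WT and 1214 in KO, 125-fold (108 to 146). Atf3, a stress-induced repressor of inflammatory genes, stood at 8.26 and 1056 CPM, 128-fold (109 to 150). Both were expressed in normal cells of the rule, Dusp1 at 432 and 334 CPM and Atf3 at 126 and 120 CPM. The summed immediate early level was 1226 CPM in WT and 30021 in KO monocytic cells, 1164 and 20152 CPM in the remaining cells, and 6502 and 5295 CPM in normal cells of the rule. In T and NK cells of the leukaemia libraries it was 1322 and 19926 CPM. The difference between the libraries was thus also counted in T and NK cells. These cells also held neutrophil markers (19989 CPM in WT and 28211 in KO) and erythroid markers (207 and 7734 CPM). How much of their immediate early sum was their own RNA was not tested. The part of the library difference in the monocytic result was not tested either.

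The excess was found in most cells. With cells thinned to 2000 UMIs, Klf2 was detected in 23.2% of WT (21.4 to 25.04) and 99.1% of KO monocytic cells (98.4 to 99.6), and in 11.01% and 91.8% of T and NK cells. Fos was detected in 11.9% and 83.4% of monocytic cells, and in 6.42% and 60.9% of T and NK cells. Klf4 was detected in 7.17% and 74.98% of monocytic cells, and in 0 of 109 and 26.4% of T and NK cells. Before thinning the Klf4 shares of monocytic cells were 16.6% and 93.4%.

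The promoters of 2 of these genes are shown because their levels differed most between the libraries among genes with a named element in the window searched, the 250 bases before the start site in RefSeq (build GRCm38.p6). Cxcl2 lies on the plus strand at chr5:90903649-90903898 and Dusp1 on the minus strand at chr17:26508473-26508722; each is written 5′ to 3′ along its gene. Capitals mark a match to the NF-kB site in Cxcl2, 97 to 87 bases upstream, and to the cAMP response element TGACGTCA in Dusp1, 143 to 136 bases upstream.
Cxcl2: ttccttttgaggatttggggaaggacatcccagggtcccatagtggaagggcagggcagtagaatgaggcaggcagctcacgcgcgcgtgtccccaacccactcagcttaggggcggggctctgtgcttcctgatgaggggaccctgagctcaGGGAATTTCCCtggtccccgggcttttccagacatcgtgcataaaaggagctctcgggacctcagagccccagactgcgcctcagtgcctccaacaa
Dusp1: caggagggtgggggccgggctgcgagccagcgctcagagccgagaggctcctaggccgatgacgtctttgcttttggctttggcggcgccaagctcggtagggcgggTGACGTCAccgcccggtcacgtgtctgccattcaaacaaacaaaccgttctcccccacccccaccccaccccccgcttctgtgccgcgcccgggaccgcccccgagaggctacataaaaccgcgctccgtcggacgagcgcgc
Of the 12 highest genes, 9 were in the promoter table. Both strands were searched, and overlapping matches were merged. The NF-kB site occurred in 3 of them (Cxcl2, Fosb and Fos) and in 3.9% of all 32851 windows of this length. The cAMP response element occurred in 1 (Dusp1) and in 1.55% of windows. The serum response element occurred in none of the 9 and in 1.47% of windows, and TATAAA in 2 (Il1b and Fos) and in 12.4%. A match is only a run of letters in this window.

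Chemokines and cytokines showed the next largest excess. Of 37 genes on that list 25 were measured, 24 were higher in KO and 21 by 2-fold or more (background 5.8%), with a median log2 ratio of 2.73 against -0.24 for all genes. Ccl2, the ligand of Ccr2 and the main attractant of monocytes, rested on 31 UMIs in WT and 5758 in KO: 1.63 CPM against 507 CPM, 311-fold (219 to 458). Cxcl2, a neutrophil attractant, stood at 4.79 and 792 CPM, 165-fold (134 to 206). The chemokines Ccl3 and Ccl4 stood at 39.7 and 1026 CPM and at 17.6 and 578 CPM. In the remaining cells as a whole Ccl2 stood at 0.176 CPM in WT and 28.5 in KO, and Cxcl2 at 19.1 and 1020 CPM. The class II high cells of the same marker rule, which are among the remaining cells, had Ccl2 at 0.977 and 644 CPM.

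Il1b, the secreted inflammasome product, stood at 5.16 CPM in WT and 422 in KO, 81.8-fold (67.0 to 101). With thinning it was detected in 0.919% of WT and 31.2% of KO monocytic cells, against 1.83% and 9.09% of T and NK cells; the WT share is therefore at background. Cd83, an activation marker of antigen-presenting cells, stood at 1.89 and 104 CPM. Nlrp3, the inflammasome sensor, stood at 28.6 and 351 CPM. Tnf stood at 6.42 and 20.7 CPM, a smaller difference than that of the chemokines. The anti-inflammatory Il10 rested on 0.105 CPM in WT and 13.1 in KO, and the decay factor Zfp36, which destabilises cytokine mRNA, stood at 47.6 and 1180 CPM. The NF-kB inhibitors Nfkbia, at 163 and 637 CPM, and Tnfaip3, at 9.42 and 123 CPM, were higher too. The 1 lower member was Tgfb1, at 225 CPM in WT and 136 in KO.

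Receptors for microbial products were divided. Of 26 measured, 17 were higher in KO, 9 by 2-fold or more, and 9 were lower, 1 by 2-fold or more. The shares over all genes were 30.6% higher, 5.8% by 2-fold or more, and 69.4% lower, 8.01% by 2-fold or more. The median log2 ratio was 0.54 against -0.24 for all genes. Cd14, which hands lipopolysaccharide to Tlr4, stood at 18.1 CPM in WT and 411 in KO, 22.8-fold (20.4 to 25.5). The C-type lectins Clec4e, at 15.7 and 200 CPM, and Clec4d, at 9.84 and 89.1 CPM, and the receptor Tlr2, at 20.1 and 119 CPM, were also higher. Tlr4 itself was low in both, at 7.74 and 17.9 CPM. Lower were Ly86, a gene of the rule, Tlr1 (9.32 and 4.67 CPM), Irak4 (57.95 and 31.3 CPM) and Ly96 (26.7 and 19.7 CPM), the last of which completes the Tlr4 complex. Cd14 and Ly96, which serve the same receptor, thus differed in opposite directions.

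Among 30 measured monocyte transcription factors 21 were higher in KO, 12 by 2-fold or more, and 3 were lower by 2-fold or more; the median log2 ratio was 0.51 against -0.24 for all genes. Of all genes 30.6% were higher by any amount, 5.8% by 2-fold or more, and 8.01% were lower by 2-fold or more. Egr1, Egr2, Nr4a1, Klf2 and Klf4 are shared with the immediate early list. Klf4, which directs progenitors to the monocyte fate, stood at 31.9 CPM in WT and 973 in KO, 30.5-fold (28.1 to 33.1), and at 198 and 158 CPM in normal cells of the rule. In the remaining leukaemia cells it stood at 3.16 and 94.7 CPM. Cebpb, which takes over in stimulated monocytes, stood at 590 and 1797 CPM.

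Spi1 and Runx1 differed less than Klf4 did. Spi1 stood at 405 CPM in WT and 428 in KO, a ratio of 1.06 (1.02 to 1.10), and Runx1 stood at 555 and 473 CPM. The 3 members that were 2-fold lower were the lymphoid repressor Bach2 (40.6 and 10.4 CPM), Pou2f2, which is raised in non-classical monocytes (140 and 51.5 CPM), and Tfec (108 and 52.3 CPM). Irf8 had a ratio of 0.936 (0.899 to 0.975), but it is one of the genes that chose the cells, and in the remaining cells its ratio was 0.417.

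Classical monocyte genes were higher in KO in 17 of 23 measured members, 5 of them by 2-fold or more. The rule's own Ccr2 and F13a1 are counted in the 17, and Ms4a6c, also of the rule, was lower. Of all genes 30.6% were higher by any amount and 5.8% by 2-fold or more. The median log2 ratio of the list was 0.37 against -0.24 for all genes. Lyz2, the lysozyme of phagocytes, stood at 4066 CPM in WT and 8521 in KO, 2.10-fold (2.08 to 2.12). Chil3, a chitinase-like protein of classical monocytes, stood at 674 and 2035 CPM, and Tgfbi, a matrix protein, at 69.4 and 185 CPM. Lower in KO were Plac8 (6423 and 3810 CPM), Ly6e (1078 and 772 CPM) and Ly6c2, with a ratio of 0.831 (0.815 to 0.848). In the few cells with no UMI of the primary granule genes Mpo, Elane, Prtn3 and Ctsg (154 WT and 59 KO cells), only 11 of the list's members were higher and the median was -0.03. Non-classical monocyte genes, measured in 12 of 20, were higher in 4 and lower in 8, the rule's own Cx3cr1 among the 8. Their median was -0.19, and median-ratio scaling turned the counts to 7 and 5.

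Genes of monocyte precursors were lower in KO in 15 of 18 members, 3 of them by 2-fold or more. The rule's own Csf1r, Irf8 and Cx3cr1 are counted in the 15. Of all genes 69.4% were lower by any amount and 8.01% by 2-fold or more. The median log2 ratio of the list was -0.45 against -0.24 for all genes, and median-ratio scaling left 11 lower. Flt3, the cytokine receptor of early progenitors, stood at 55.4 CPM in WT and 13.8 in KO, a ratio of 0.250 (0.210 to 0.295). Kit had a ratio of 0.471 (0.403 to 0.548) and the progenitor antigen Cd34 one of 0.5005 (0.439 to 0.569), from 54.6 and 27.3 CPM. The 3 higher members were the granule enzymes Mpo, with a ratio of 1.65 (1.58 to 1.71), Prtn3 (1874 and 2007 CPM) and Elane (2464 and 2595 CPM). The primary granule list as a whole was divided, with 5 of 10 members higher, 5 lower and a median of -0.07. In normal cells of the rule Flt3 had a ratio of 1.03 and Cd34 one of 0.848.

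Growth factor receptors differed less. Of 16 measured, 11 were lower in KO and 2 (Kit and Flt3) by 2-fold or more, with a median log2 ratio of -0.12; median-ratio scaling left 7 lower. These counts lay near the 69.4% and 8.01% of all genes. The granulocyte-macrophage receptor chain Csf2ra stood at 197 CPM in WT and 272 in KO and Tgfbr1 at 61.8 and 115 CPM. The granulocyte receptor Csf3r stood at 135 and 90.9 CPM. Of 18 chemokine receptors and adhesion molecules 8 were higher and 10 lower, with a median of -0.08, and median-ratio scaling turned this to 12 and 6. Cd44, the hyaluronan receptor, stood at 362 and 1154 CPM, 3.19-fold (3.09 to 3.28), and Cxcr4, which holds cells in the marrow, at 221 and 405 CPM. Pecam1 stood at 302 and 95.3 CPM, the lowest ratio of the list.

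Class II genes are limited by the rule, but their partners are not. Of 11 measured genes of the pathway 5 were higher and 6 lower in KO, with a median of -0.13, and median-ratio scaling turned this to 6 and 5. Cd74, which the rule limits, is counted among the 5 higher. The costimulatory ligand Cd86 stood at 10.5 CPM in WT and 188 in KO and Cd80 at 10.05 and 34.5 CPM. The exchange factors H2-Ob (12.6 and 1.94 CPM) and H2-Oa (10.001 and 2.47 CPM) were lower, as was H2-DMa (169 and 92.7 CPM). Class I genes were lower in 14 of 18, 1 of them by 2-fold or more (Tap2, 112 and 54.3 CPM). Their median was -0.23, close to that of all genes, and median-ratio scaling left 9 lower. Over all genes 69.4% were lower by any amount and 8.01% by 2-fold or more, near the class I counts. Near-identical copies among the histocompatibility, Ly6, stefin and interferon-inducible Ifi200 genes can share reads, so their single values are uncertain.

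Interferon-response genes did not share the excess of the inflammatory genes: 13 of 34 were higher and 21 lower in KO, 2 of them 2-fold higher and none 2-fold lower, with a median of -0.15 against -0.24 for all genes. Median-ratio scaling turned the counts to 20 higher and 14 lower. The 2 were Irf7 (14.8 and 33.0 CPM) and Cxcl10 (3.84 and 10.5 CPM). Lysosomal genes had a median of 0.09, and 2 of 27 were 2-fold higher, the proteases Ctsl (53.4 and 229 CPM) and Ctsc (176 and 552 CPM). Of 7 phagocyte oxidase genes 5 were higher. Over all genes 30.6% were higher by any amount, 69.4% were lower and 5.8% were at least 2-fold higher. The 2-fold higher counts of the interferon-response and lysosomal lists lay near that last share. The lipid receptor Trem2 stood at 8.16 and 45.4 CPM and the inflammation amplifier Trem1 at 5.001 and 100.5 CPM, whereas the sialic acid receptor Cd33 stood at 174 and 83.7 CPM.

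Genes of the MLL fusion programme were lower in KO in 21 of 29 measured members, 8 of them by 2-fold or more, with a median log2 ratio of -0.60 against -0.24 for all genes. Of all genes 69.4% were lower by any amount, a share near that of the list, and 8.01% by 2-fold or more. Pbx3, which binds DNA with Meis1 and Hoxa9, stood at 867 CPM in WT and 211 in KO, a ratio of 0.243 (0.233 to 0.254). Meis1 had a ratio of 0.657 (0.630 to 0.684), Hoxa9 one of 0.614 (0.571 to 0.660) and Hoxa10 one of 0.527 (0.463 to 0.600). Myb, the progenitor factor, stood at 266 and 128 CPM, and the cell cycle kinase Cdk6 at 823 and 508 CPM. The RNA-binding proteins Igf2bp3 (106 and 31.2 CPM) and Igf2bp2 (21.2 and 1.32 CPM) were lower as well. The core homeobox genes therefore differed by less than Pbx3 did.

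The programme was not lower throughout. Mecom had a ratio of 1.09 (1.07 to 1.12) and Mef2c, a factor of the monocytic branch, stood at 917 CPM in WT and 1214 in KO. The survival gene Mcl1 was 4.90-fold higher (4.74 to 5.07), at 243 and 1190 CPM, and Bcl2 was lower, at 155 and 63.2 CPM. The list had a median of -0.59 in the remaining leukaemia cells, and Pbx3 there stood at 1028 and 255 CPM. In normal cells of the rule the median was -0.15.

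The 12 lowest KO over WT ratios at 50 CPM or more belonged to Auts2, Pcdh7, Angpt1, Ikzf2, Pbx3, Iftap, Dpp4, Aff3, Adgrl4, Il31ra, Clec2i and Igf2bp3. Auts2, a partner of Polycomb complexes, stood at 225 CPM in WT and 22.8 in KO, a ratio of 0.102 (0.0893 to 0.115). The protocadherin Pcdh7 stood at 238 and 24.8 CPM, and in normal cells of the rule at 2.06 and 2.04 CPM. Ikzf2, the Ikaros-family factor Helios, stood at 631 and 150 CPM against 13.8 and 10.4 CPM in normal cells. Pcdh7, Ikzf2, Pbx3, Clec2i and Igf2bp3 were thus higher in leukaemic than in normal cells and lower in KO than in WT leukaemia. Angpt1, the Tie2 ligand, stood at 113 and 19.3 CPM against 27.0 and 20.6 CPM in normal cells, so that the KO level lay beside the normal one.

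**Figure D3:**
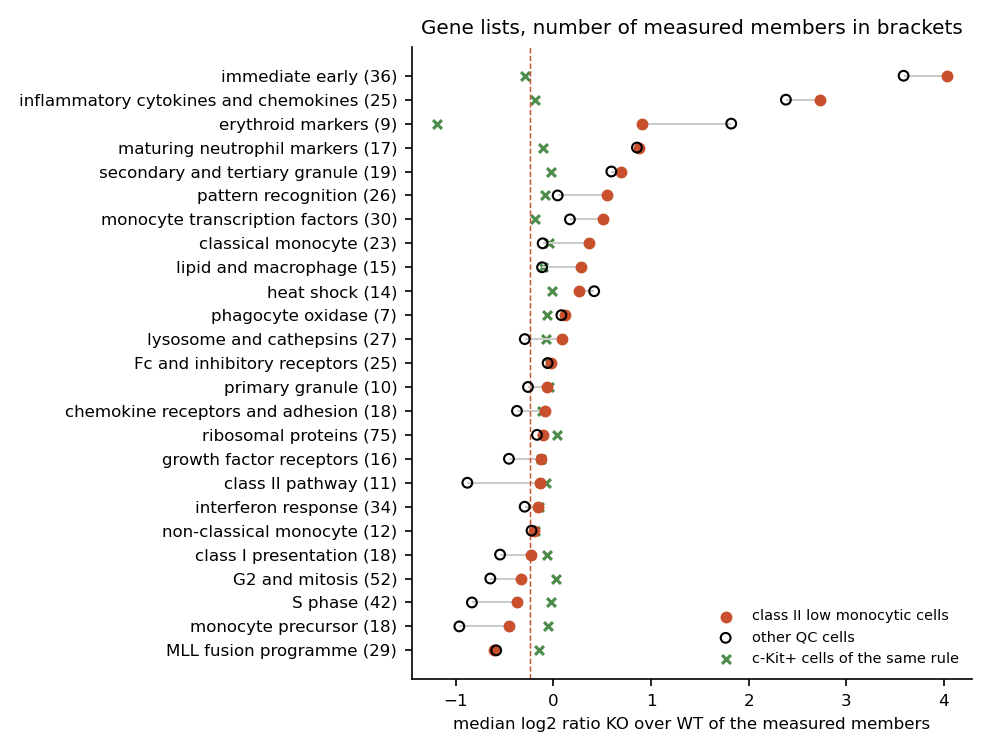
Median log2 ratio of KO over WT of the measured members of each gene list (number in brackets) in class II low monocytic cells (filled circles), the remaining leukaemia cells (open circles) and normal c-Kit+ cells of the same rule (crosses); the dashed line marks the median of all genes in the monocytic cells, -0.24. The immediate early list stands at 4.03 and the MLL fusion programme at -0.60.

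Proliferation genes were mostly lower in KO, with small ratios, as were 69.4% of all genes. Of 42 S phase genes 39 were lower, 3 by 2-fold or more, with a median log2 ratio of -0.38, and of 52 genes of G2 and mitosis 47 were lower, 5 by 2-fold or more (background 8.01%), with a median of -0.33, against -0.24 for all genes. Median-ratio scaling left 28 and 30 lower, with medians of -0.13 and -0.09. Examples were the helicase Hells (109 and 48.7 CPM) and Top2a, the topoisomerase of dividing cells (373 and 204 CPM). The replication clamp Pcna stood at 172 and 208 CPM. In thinned cells a UMI of Top2a, Mki67, Ccna2, Cdk1 or Ube2c was found in 37.1% of WT (35.1 to 39.2) and 33.9% of KO monocytic cells (31.1 to 36.9), and in 29.4% and 10.9% of T and NK cells. Before thinning both shares were 55.7%. Heat shock genes were higher in 8 of 14, 5 of them by 2-fold or more, against 30.6% and 5.8% of all genes. Hspa1a stood at 38.1 and 484 CPM, and the median was 0.27.

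Markers of other cell types were low in the set but not equal between the libraries. Of 17 measured neutrophil markers 14 were higher in KO, against 30.6% of all genes. Their median log2 ratio was 0.88, the same sense as in the remaining cells (0.86), and the part of these markers in the results was not tested. Erythroid markers summed to 792 CPM in WT and 2392 in KO monocytic cells, 2634 and 12624 CPM in the remaining cells, and 207 and 7734 CPM in T and NK cells. T and NK markers summed to 140 and 82.9 CPM, nearly all of it Nkg7 (127 and 69.3 CPM). Among the C1q macrophage markers C1qa was at 0 by the rule, C1qb stood at 0.211 and 0.176 CPM, and the list summed to 215 and 110 CPM, mostly Adgre1. Counts without the cells of neutrophil-led clusters were 591 genes higher and 858 lower.

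The KO over WT ratio of the monocytic cells differed from that of the remaining cells of the same libraries by 1 log2 unit or more upward in 218 of 9398 genes (2.32%) and downward in 66 (0.702%). The upward genes with the largest differences at 50 CPM or more in both sets were Il1b, Rgcc, Atf3, Rilpl2, Ctsc, Dusp1, Crip1 and Cd44. Ctsc, which activates granule proteases, stood at 176 CPM in WT and 552 in KO monocytic cells, but at 58.3 and 61.9 CPM in the remaining cells. Cd44 stood at 362 and 1154 CPM against 356 and 411 CPM. Rgcc, a regulator of the cell cycle, stood at 82.4 and 680 CPM against 191 and 445 CPM. The class II high cells of the same marker rule, pooled here with the remaining cells, had Ctsc at 284 and 540 CPM, Cd44 at 361 and 1302 CPM and Rgcc at 45.5 and 751 CPM. All 3 genes were thus higher in KO in these class II high cells too.

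Downward, large differences belonged to Lmnb1, Sik1, Suco, Tmed5, Bltp1, Wdfy2 and Tbc1d8. Lmnb1, a protein of the nuclear lamina, stood at 222 CPM in WT and 341 in KO monocytic cells and at 185 and 860 CPM in the remaining cells. Among the rule genes Ms4a6c, Csf1r and Irf8 were lower in KO in the remaining cells (Csf1r 17.7 and 7.84 CPM) and level in the monocytic cells. These genes are among the 8 by which the cells were chosen, so the comparison is affected by the choice. The rule asks for any 4 of the 8 and fixes no minimum for a single gene. Without thinning Csf1r was detected in 54.2% of WT and 57.6% of KO monocytic cells.

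**Figure D4:**
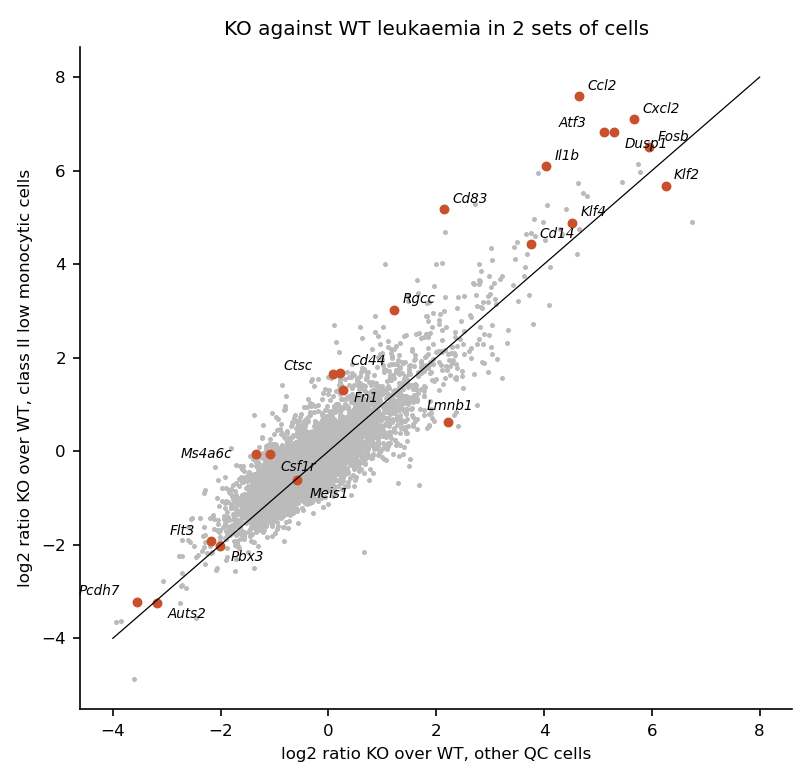
Log2 ratio of KO over WT in the remaining filtered cells (x axis) and in class II low monocytic cells (y axis), 1 point per gene that averaged at least 5 CPM in both sets, with the line of equal ratios; both axes come from the same 2 libraries. Ccl2, Cd83, Il1b, Ctsc and Cd44 lie above the line, Lmnb1 and Klf2 below it, and Pbx3 and Meis1 on it.

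The monocytic cells of each library were clustered on their own, without the rule genes, and the clusters were left unnamed. In WT the 10 clusters held 8 to 690 cells. The genes that lead a cluster define it and are no result. Cluster WT 5 (690 cells) was led by Clec4a1, Sirpb1c and Clec4a3, WT 8 (450 cells) by histone and mitosis genes, WT 1 (355 cells) by Kcng2, Flt3 and Ccr1, WT 10 (273 cells) by Syn3, Angpt1 and Aff3, and WT 4 (263 cells) by Mpo, Elane and Ctsg. WT 3 (187 cells) was led by neutrophil genes and 55.6% of its cells were doublet calls. The other 4 WT clusters were small, led by interferon-response genes (26 cells), by Adgre4, Ear2 and Cd300e (13 cells), by T cell genes (8 cells) and by erythroid genes (8 cells).

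The rule genes, left out of the clustering, still varied over the clusters. Fn1 stood at 1093 CPM in WT 5 and 28.8 CPM in WT 4, and F13a1 at 1652 and 362 CPM. Irf8 ran the other way, at 266 CPM in WT 5 and 534 CPM in WT 1. Lyz2 stood at 12355 CPM in WT 5 and 847 CPM in WT 4. Fibronectin, F13a1 and lysozyme were thus high together in the largest WT cluster, and the protease-led cluster had the least Fn1 of the 6 WT clusters with 50 or more cells. Mecom stood between 695 and 1027 CPM in 5 of those 6 and at 2282 CPM in WT 10, while Hoxa9 stood between 111 and 181 CPM in all 6.

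In KO there were 6 clusters of 114 to 288 cells. KO 2 (288 cells) was led by Slfn5, Clec4a1 and Ccl2, KO 1 (222 cells) by Ccrl2, Cd83 and Abca1, KO 5 (165 cells) by mitosis genes, KO 4 (146 cells) by DNA replication genes, and KO 3 (114 cells) by Adgrg1, Aff3, Mpo, Kit and Cd34. KO 6 (118 cells) was led by neutrophil genes and 66.1% of its cells were doublet calls. Haemoglobins were not ranked among the leading genes. Erythroid markers, which include them, summed to 8495 CPM in KO 5 and to between 580 and 1137 CPM in the other KO clusters. Immediate early genes summed to between 20957 CPM (KO 3) and 38339 CPM (KO 2) in the 6 KO clusters and to between 706 and 2035 CPM in the 6 larger WT clusters. The excess was present in every KO cluster, replicating and granule-rich cells included. Clusters of a library are parts of that library and not replicates. In T and NK cells of the 2 libraries the sum was 1322 CPM in WT and 19926 CPM in KO. Ccl2 was less even, at 1179 CPM in KO 2 and 952 CPM in KO 1 but 61.4 CPM in KO 3. Klf4 stood at 1766 CPM in KO 1 and 438 CPM in KO 3, above the 79.3 CPM of WT 5, the highest of the larger WT clusters.

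**Figure D5:**
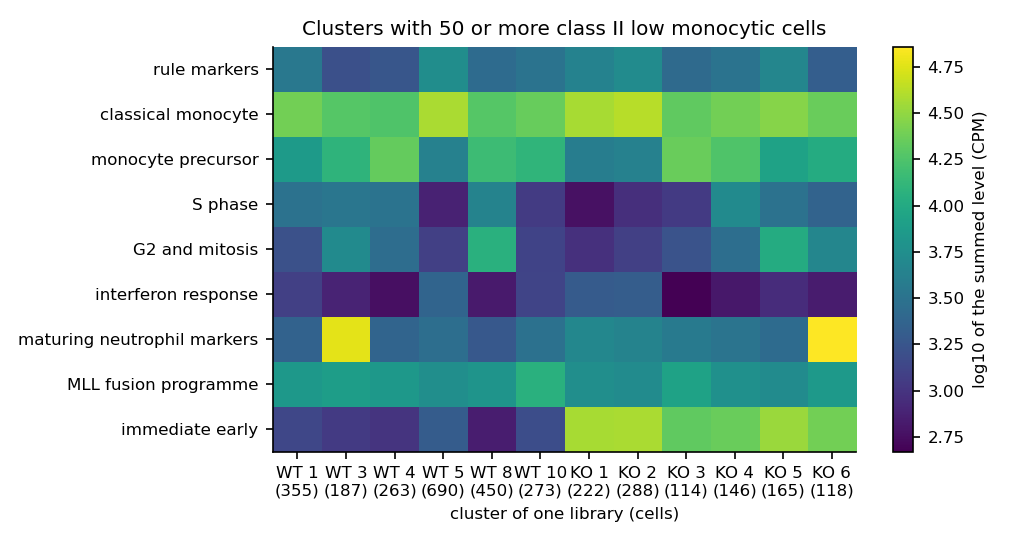
Summed level (log10 of CPM, colour) of 9 gene lists in the clusters with 50 or more class II low monocytic cells, 6 of the WT and 6 of the KO leukaemia library, with the number of cells in brackets. The immediate early row divides WT from KO clusters, and the neutrophil row picks out WT 3 and KO 6.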

How the data were processed

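Droplet single-cell libraries of mouse bone marrow, 1 for each of 4 groups, were processed by the authors with Cell Ranger 7.1.0 on mm10, per the submitters' processing notes; the gene annotation is not given in the sources used here. The deposited matrices hold UMI counts, not normalized, for 56941 features. Cells were filtered and chosen as described above, and the counts of a group's cells were summed and scaled to CPM. Log2 ratios used a pseudocount of 1 CPM; genes averaging at least 5 CPM count as measured, and 2-fold or more as higher or lower. No test was possible with 1 library per group. Intervals of ratios are exact conditional binomial, those of shares exact Clopper-Pearson, at 95%. Doublets were called per library with Scrublet in scanpy 1.11.5 (expected rate 0.08) and kept. Monocytic cells were clustered per library by the Leiden method (2000 variable genes, 20 components, 15 neighbours, resolution 0.5). Python 3.11.15, numpy 2.4.6, scipy 1.17.1 and pandas 2.3.3 were used; the computation of ratios was tested on simulated data. The members and the 35 gene lists were chosen with earlier results of these data known. Genes named were 35 fixed genes, the 12 highest and 12 lowest KO over WT ratios at 50 CPM or more whose log2 ratio in thinned cells had that sign and reached 0.5, the 12 highest and 12 lowest against the remaining cells, the 8 highest and 8 lowest differences between these ratios, and list members with the largest ratios or a described role. For clusters, leading genes were named. Ly6a2, Lilr4b, Ddx58 and Ahsp were on a list but not matched to a single feature. Alternatives changed the cell filter, the rule's limits, depth, doublets, scaling, pseudocount, expression minimum and the cells included. Results of some genes that this rule names are not reported here.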

Additional observations from a re-analysis of the deposited data

Results flagged for a closer look

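Among the 35 fixed genes, 7 had KO over WT ratios on opposite sides of 1, with both counting intervals excluding 1, in class II low monocytic leukaemia cells and in normal c-Kit+ cells of the same rule. Genes outside the fixed ones were not searched in this way; with 1 library per group the difference was not tested. Klf4 had a ratio of 30.5 in leukaemia and 0.8 in normal cells, and Lyz2 2.1 and 0.817. F13a1 had 1.56 and 0.882, Mpo 1.65 and 0.952, and Mef2c 1.32 and 0.772. Mecom had 1.09 and 0.484, the latter from a trace level in normal cells. Rbm5, the targeted gene, was the only one of the 7 lower in the KO leukaemia cells, at 0.676, and higher in normal cells of the library labelled KO, at 1.45.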

How the results depend on the processing

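No paired analysis was possible because each group is 1 library. The share of class II low monocytic cells was lower in KO under every alternative run for it. In WT and KO it was 16.2% and 8.36% of every barcode, 9.48% and 5.58% in thinned cells (ratio 0.589), 22.8% and 11.1% with 3 or more markers, 12.4% and 7.46% with 5 or more (ratio 0.601), and 13.6% and 6.46% with no class II UMI (ratio 0.477). Up to 5 class II UMIs gave 9.95% in KO (ratio 0.561). A stricter cell filter gave 18.3% in WT, and not using the excluded genes 17.99%. Without cells of neutrophil-led clusters, an alternative chosen after seeing the data, the shares were 15.8% and 7.94%. Genes 2-fold lower in KO numbered 399 with median-ratio size factors and 414 with a pseudocount of 5 CPM. Genes higher and lower numbered 329 and 318 at 25 CPM or more, and 930 and 1245 with no expression minimum. In cells with no primary granule UMI, also chosen after seeing the data, they numbered 1029 and 2223; few cells remained. Against the remaining cells, 386 genes were higher and 282 lower with a pseudocount of 5 CPM, and 357 and 263 at 25 CPM or more. Genes whose ratio differed upward and downward from that of the remaining cells numbered 131 and 42 with a pseudocount of 5 CPM, 131 and 120 with size factors, 413 and 144 in thinned cells, and 114 downward without doublets. With size factors the majority turned from lower to higher in growth factor receptors (7 lower), non-classical monocyte (5 lower), ribosomal protein (22 lower), interferon-response (14 lower), adhesion (6 lower), class II pathway (5 lower), Fc receptor (7 lower) and rule marker genes (2 lower), and class I genes were tied (9 lower). With no primary granule UMI the direction reversed in classical monocyte genes (11 higher), H2-Ab1 (log2 ratio 0.73) and H2-Eb1 (0.61). The cause was not tested. Depth limits genes near 1 UMI, and no value has a replicate check.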
